A study of Mus musculus with 21 samples.

Results

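The joins described here link a broken Sμ end to the switch regions Sγ1 or Sγ2a in CH12F3, a murine B-cell lymphoma line that turns mainly from IgM to IgA on stimulation. They were read by CSR-HTGTS-seq, which captures a fixed broken end (the bait) and sequences whatever it was joined to (the prey). A join was counted by the mm9 position of the prey's first base on chromosome 12. The γ1 unit is chr12:114563000-114587999 and the γ2a unit is chr12:114528000-114540499. Of 40530 junctions in 21 libraries, 230 lay in these units, 67 in γ1 and 163 in γ2a. The rule uses position alone, and the border of γ2a on the Sα side was set after the positions of the joins had been seen.

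All cells were stimulated for 72 h with TGF-β, IL4 and anti-CD40, and all lack the span from Sμ to Sα on the non-coding IgH allele, which leaves the coding allele to switch. i3CBEc-3CBEdel (3 libraries, 5342 junctions) carries 3 inserted CTCF-binding elements and lacks the 3′CBEs. Iadel-i3CBEc (3 libraries, 5152 junctions) lacks Iα, where germline transcription through Sα starts, and carries the 3 inserted elements downstream of Cγ2a. i3CBEc (3 libraries, 3828 junctions) carries the insertion alone, in what the labels call convergent orientation. Iadel (6 libraries, 14644 junctions) lacks Iα alone, and NCdel (6 libraries, 11564 junctions) is the parent line with only the non-coding allele deleted. The labels do not say whether a genotype is 1 clone or several, nor whether its libraries came from separate cultures, so p-values measure only the spread between these libraries.

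Class switching joins Sμ to a downstream switch region, so that the constant gene behind that region replaces Cμ. The cytidine deaminase AID starts the breaks, preferentially at AGCT and related motifs, in switch regions transcribed from their own I promoters. Cohesin that extrudes chromatin loops brings the switch regions together, and CTCF bound at its sites can halt it. A join that deletes the DNA between Sμ and the acceptor allows a switched antibody to be made, while an inversional join does not. The γ genes compared here are not the usual target in this line, and their order along the locus from Sμ is γ3, γ1, γ2b, γ2a, ε and α.

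The switch sequence of each unit is shown by the 100 bases with the most AGCT among those covered by mismatch-free prey reads. It is given on the minus strand, with AGCT in capitals. AGCT reads the same on both strands. The γ1 stretch (chr12:114575582-114575681) holds 6 AGCT and 1 of the joins, and the γ2a stretch (chr12:114528694-114528793) holds 5 AGCT and 9 of the joins.
γ1 stretch: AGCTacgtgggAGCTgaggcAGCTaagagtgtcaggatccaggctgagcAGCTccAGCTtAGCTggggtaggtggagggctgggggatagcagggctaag
γ2a stretch: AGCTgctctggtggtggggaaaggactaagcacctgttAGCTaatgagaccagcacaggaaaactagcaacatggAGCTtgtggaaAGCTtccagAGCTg

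The joins themselves are shown by the reads with the longest overlaps, the bases that the bait alignment and the prey alignment both cover, 3 for each unit in Iadel and 2 for γ2a in Iadel-i3CBEc. Each reads from the bait into the prey, with 25 bases on either side of the overlap. Capitals mark the overlap bases matched in both alignments, so the lower-case base within the overlap of 3 of these reads is one that the bait or the prey alignment leaves unmatched. The bait side of every join lies in the same Sμ segment, so the same bait words recur.
γ1, Iadel library 3, prey at 114575479: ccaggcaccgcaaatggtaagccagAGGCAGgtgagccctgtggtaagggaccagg
γ1, Iadel library 5, prey at 114574975: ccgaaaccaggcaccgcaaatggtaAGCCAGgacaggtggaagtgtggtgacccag
γ1, Iadel library 4, prey at 114574791: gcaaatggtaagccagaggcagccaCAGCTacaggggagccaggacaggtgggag
γ2a, Iadel library 1, prey at 114530788: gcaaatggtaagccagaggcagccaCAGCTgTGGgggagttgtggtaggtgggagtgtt
γ2a, Iadel library 2, prey at 114531793: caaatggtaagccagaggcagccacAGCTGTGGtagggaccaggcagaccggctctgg
γ2a, Iadel library 2, prey at 114532009: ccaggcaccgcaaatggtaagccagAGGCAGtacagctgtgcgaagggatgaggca
γ2a, Iadel-i3CBEc library 2, prey at 114528702: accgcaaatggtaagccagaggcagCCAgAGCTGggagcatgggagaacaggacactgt
γ2a, Iadel-i3CBEc library 2, inversional, prey at 114528494: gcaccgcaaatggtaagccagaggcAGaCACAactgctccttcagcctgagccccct

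Libraries held 1180 to 3513 junctions each. The file of Iadel library 4 also contained the reads of libraries 5 and 6, and after their removal 1539 of its 4614 junctions were left. Sequencing run, inferred here from a field of the read names, was tied to genotype. Run 490 holds Iadel libraries 4 to 6, NCdel libraries 1 to 3 and all of Iadel-i3CBEc, and none of the other 7 runs holds more than 1 group. Pairs of libraries of the same group and run had 8 to 146 identical joins (the same prey position, strand, bait end and overlap), 0.639% to 8.90% of the smaller library. Only 3 of these were γ1 or γ2a joins: Iadel libraries 1 and 2 shared 114530576 and 114531198 in γ2a, and libraries 4 and 6 shared the inversional join at 114574107 in γ1. Pairs of other kinds shared 1 to 39 identical joins and none in the 2 units.

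Deletion of Iα asks where Sμ ends go when Sα has lost its own promoter. Joins to γ2a rose in Iadel, whereas the difference for γ1 did not pass the test. Of all junctions, γ2a took 0.728%, 0.769%, 0.681%, 1.62%, 1.02% and 1.06% in Iadel libraries 1 to 6, a total of 130 joins. In NCdel, γ2a held 0 joins in 4 libraries, 0.0530% in library 3 (1 join) and 0.0946% in library 6 (2 joins). Every Iadel library lay above every NCdel library. The mean was 0.982% ± 0.353 in Iadel and 0.0246% ± 0.0403 in NCdel (SD, n = 6 each), a difference of 0.957 percentage points, with an exact permutation p of 0.00216, the smallest that 6 against 6 libraries allow. The Benjamini-Hochberg adjusted permutation p over the 10 regions of the IgH window was 0.00541. On pooled counts the ratio was 34.2 (95% exact conditional interval 11.5 to 168). Its size rests on the 3 NCdel joins, since the ratio of group means was 39.9 with all libraries and 92.6 without NCdel library 6, which holds 2 of them. Of the 10 regions, 50% were called in this comparison (40% as higher and 10% as lower in Iadel), and 40% did not overlap between groups, so the call on γ2a is one of several.

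Relative to its mean, γ1 was spread more widely. It took 0.0874%, 0.228%, 0.130%, 0.650%, 0.739% and 0.380% in Iadel libraries 1 to 6 (43 joins) and 0.0532%, 0.150% and 0.246% as the lowest, median and highest of NCdel (18 joins). Iadel libraries 1 to 3 lay within the NCdel range and libraries 4 to 6 above it. The means were 0.369% ± 0.273 in Iadel and 0.161% ± 0.0739 in NCdel (SD, n = 6 each), a difference of 0.208 percentage points (exact permutation p = 0.117, adjusted 0.146) and a pooled ratio of 1.89 (1.07 to 3.48). Intervals of pooled ratios, here and in the other comparisons, treat joins as independent. They leave out the spread between libraries and do not test genotype. Without Iadel library 5, the highest, the difference was 0.134. The call depends on the denominator. As a percent of junctions in acceptor regions, γ1 was at 2.90% ± 1.40 in Iadel, against 0.364% ± 0.154 in NCdel, with an adjusted p of 0.00253 by exact permutation, where the total in NCdel is made up mostly of α joins. On the same scale γ2a was at 8.89% ± 1.76 in Iadel and 0.0508% ± 0.0804 in NCdel.

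The balance between the units therefore differed, and it does not depend on any total. In Iadel, γ2a made up 75.6% ± 10.9 of the joins to either unit, from 58.1% to 89.3% over 6 libraries. In NCdel it made up 10.8% ± 17.4, from 0% to 40% over 6 libraries, which held only 1 to 5 such joins each. The difference of 64.8 percentage points had an exact permutation p of 0.00216, and no library of one group reached the range of the other. Pooled over libraries, γ2a was 130 of 173 joins in Iadel (75.1%, 95% Wilson interval 68.2 to 81.0) and 3 of 21 in NCdel (14.3%, 4.98 to 34.6). Within single Iadel libraries γ2a exceeded γ1 in 6 of 6, by 1.38-fold to 8.33-fold and by 0.613 percentage points on average (exact sign-flip permutation p = 0.03125, the smallest for 6 libraries). γ2a therefore held more joins than γ1 although it lies farther from the bait (124.4 kb against 76.9 kb, from the bait to the near border of each unit).

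**Figure D1:**
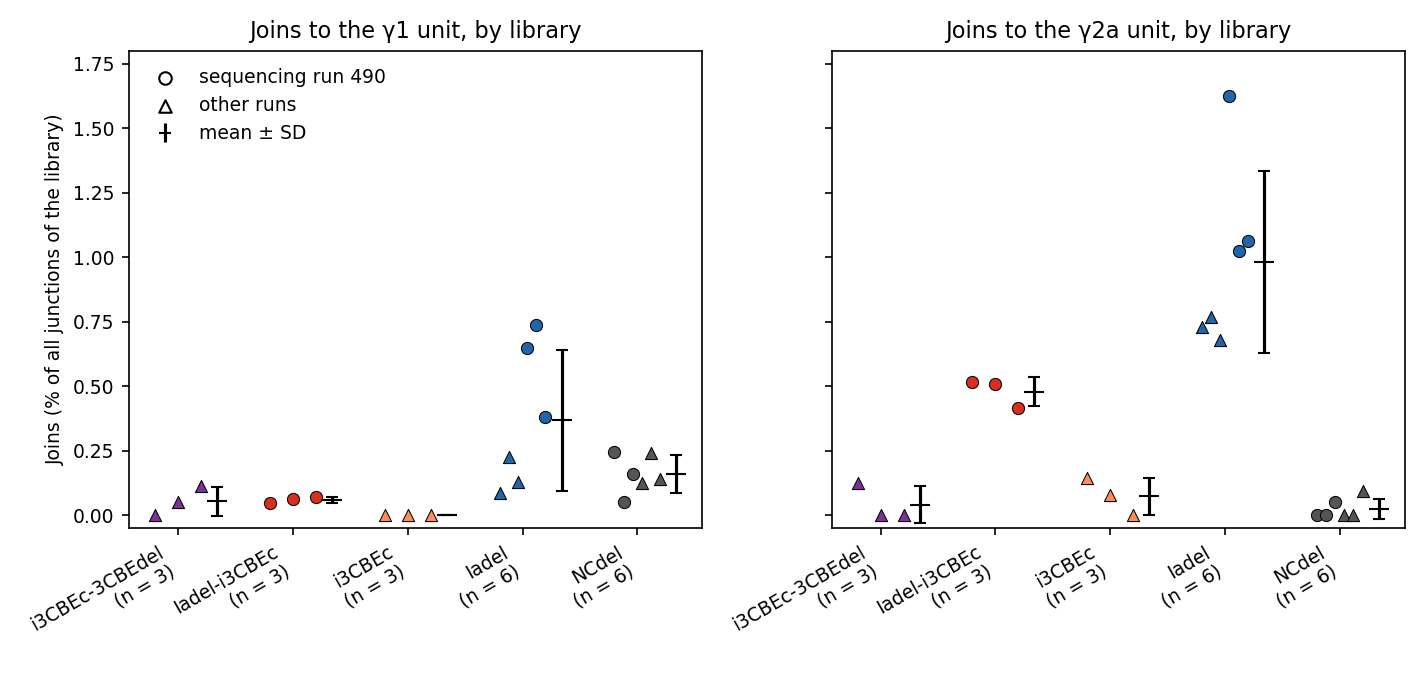
Percent of all junctions in a library that joined the γ1 unit (left) and the γ2a unit (right), by genotype. Each point is a library, circles mark sequencing run 490, triangles the other runs, and the bars give the mean ± SD. γ2a in Iadel (0.681% to 1.62%) lies above NCdel (0% to 0.0946%) in every library, while γ1 overlaps.

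Sequencing run moved with the Iadel values. In run 490 the Iadel libraries averaged 0.590% for γ1, against 0.148% in run 482, 3.98-fold more without overlap (exact permutation p = 0.1, the smallest for 3 against 3). For γ2a the averages were 1.24% in run 490 and 0.726% in run 482, 1.70-fold more. The same libraries had 55.5% of junctions outside the IgH window in run 490 and 79.3% in run 482. As a percent of acceptor joins, γ2a was at 8.31% in run 490 and 9.47% in run 482 and the runs overlapped, and γ1 was at 3.90% and 1.90% (p = 0.2 by the same permutation test). The balance also moved with run: γ2a averaged 67.7% of the joins to both units in run 490 and 83.5% in run 482. The runs did not overlap in it (exact permutation p = 0.1). Within run 490 alone, γ2a averaged 1.24% in Iadel and 0.0177% in NCdel, and γ1 averaged 0.590% in Iadel and 0.153% in NCdel. The part of run in the γ1 difference was not tested.

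**Figure D2:**
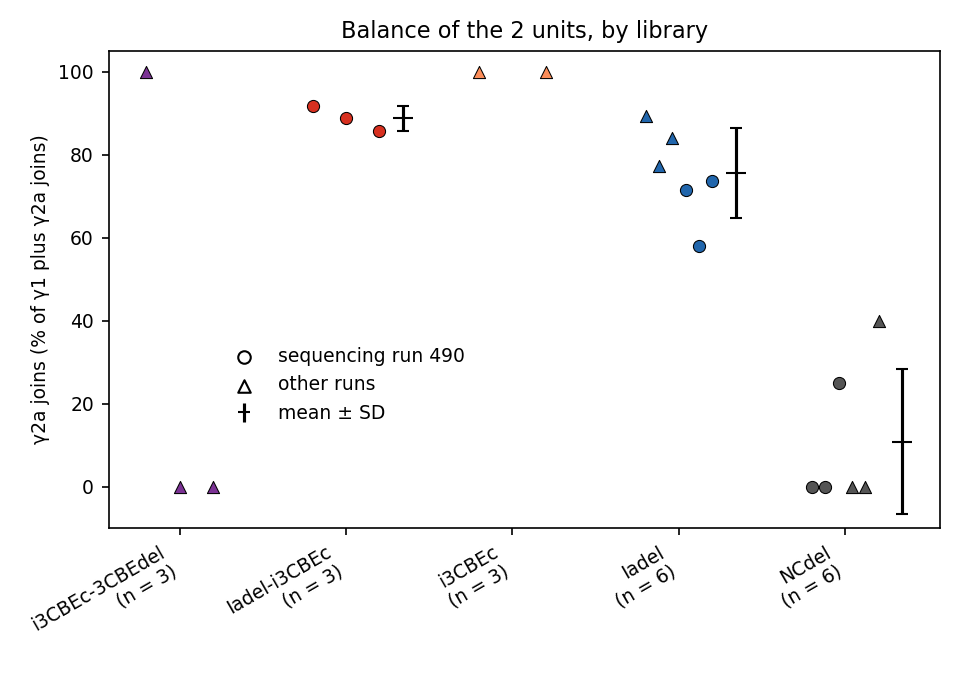
γ2a joins as a percent of γ1 plus γ2a joins in each library, with circles for sequencing run 490 and triangles for other runs. Bars give the mean ± SD for the 3 groups with more than 5 joins in all. Iadel-i3CBEc (85.7% to 91.7%) and Iadel (58.1% to 89.3%) lie above NCdel (0% to 40%), and 1 i3CBEc library without joins in either unit has no point.

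The insertion in Iα-deleted cells asks how CTCF sites placed just beyond Sγ2a bear on joins nearer the bait. γ2a took 0.517%, 0.508% and 0.415% of junctions in Iadel-i3CBEc libraries 1 to 3 (11, 8 and 6 joins), all under the lowest of the 6 Iadel libraries, 0.681%. The mean was 0.480% ± 0.0565 (SD, n = 3) in Iadel-i3CBEc and 0.982% ± 0.353 (n = 6) in Iadel, a difference of -0.502 percentage points. The exact permutation p was 0.0357 and the adjusted p was 0.0510, so the difference did not pass the threshold of 0.05. The pooled ratio was 0.547 (0.341 to 0.843). In this comparison 60% of the regions were called and 80% did not overlap. Within run 490 the averages were 0.480% in Iadel-i3CBEc and 1.24% in Iadel.

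γ1 held 1 join in each Iadel-i3CBEc library, 0.0470%, 0.0635% and 0.0691% of junctions, all under the lowest Iadel library (0.0874%). The means were 0.0598% ± 0.0115 (SD, n = 3) in Iadel-i3CBEc and 0.369% ± 0.273 (n = 6) in Iadel, with an exact permutation p of 0.0952 and an adjusted p of 0.106. The pooled ratio was 0.198 (0.0394 to 0.620). Against the acceptor total, which in Iadel-i3CBEc consists mostly of joins between Sγ2a and Sε, both units were called lower: γ1 was at 0.399% in Iadel-i3CBEc and 2.90% in Iadel (adjusted exact permutation p = 0.0417), and γ2a was at 3.19% in Iadel-i3CBEc and 8.89% in Iadel (0.0167). γ3 and γ2b, which lie on the bait side of γ2a, held no join in Iadel-i3CBEc. The share of γ2a among the joins to both units was 88.8% ± 2.98 in Iadel-i3CBEc and 75.6% ± 10.9 in Iadel, with overlap (exact permutation p = 0.0833). The γ2a joins counted came from different parts of the unit: 22 of 25 in Iadel-i3CBEc lay in the 1 kb at its Sα-side border, against 8 of 130 in Iadel.

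Within the unit, the γ2a joins of Iadel-i3CBEc lay closer to the inserted sites. The border of the unit on the Sα side, which faces the inserted elements, was taken as 0. The median γ2a join lay 680, 847.5 and 502.5 bases from it in Iadel-i3CBEc libraries 1 to 3. In Iadel libraries 1 to 6 it lay 3040, 3213, 3217, 3678, 3510 and 4049 bases from it. The groups did not overlap. The difference in means was -2774.5 bases (677 ± 173, n = 3, in Iadel-i3CBEc and 3451 ± 372, n = 6, in Iadel), with an exact permutation p of 0.0119, the smallest for 3 against 6 libraries. The border was set after the join positions had been seen, and it cuts through the Iadel-i3CBEc joins. This p therefore describes the joins counted in the unit and is no independent test of their position. Within run 490 the means were 677 bases in Iadel-i3CBEc and 3746 bases in Iadel.

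By 1-kb bin, 22 of the 25 Iadel-i3CBEc joins lay in chr12:114528000-114528999, drawn from all 3 libraries, and 2 in chr12:114529000-114529999. The same bins held 8 and 12 of the 130 Iadel joins. The fullest bins of Iadel were chr12:114531000-114531999 and chr12:114532000-114532999, with 36 joins each, and chr12:114530000-114530999, with 27. Iadel-i3CBEc held 0, 0 and 1 join there. The border cuts through the Iadel-i3CBEc joins. The 1 kb just outside it (chr12:114527000-114527999) held 7 joins of Iadel-i3CBEc, 2 of i3CBEc-3CBEdel and none of the other 3 groups, and these are not counted in γ2a. No join lay within 1 kb of either side of the other 3 unit borders. Positions in the insertion libraries had 99 bases subtracted on the bait side of the insertion, less than the difference in medians.

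**Figure D3:**
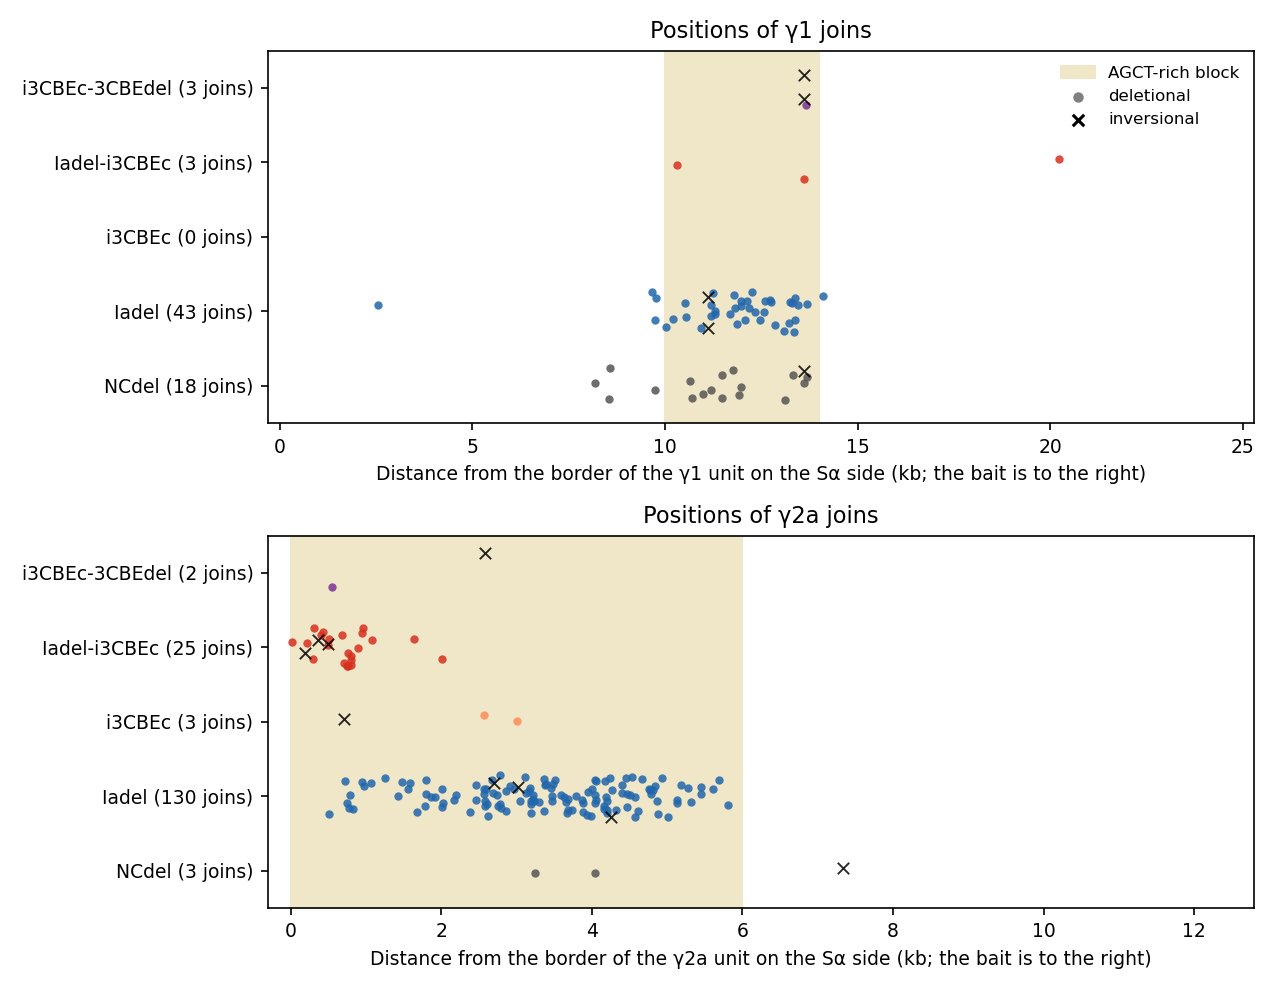
Distance in kb of every γ1 join (top) and γ2a join (bottom) from the Sα-side border of its unit, by genotype, with vertical scatter for legibility. Dots are deletional joins, crosses inversional joins, and the shaded band is the AGCT-rich block. In γ2a the 25 Iadel-i3CBEc joins lie near 0, while the 130 Iadel joins fill the block.

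The joins sat on the switch blocks, the runs of 1-kb bins with at least 1 AGCT per 100 prey bases read. In γ1 the block spans chr12:114573000-114576999 (4.0 kb of a 25-kb unit) and held 57 of 67 joins (85.1%). In γ2a it spans chr12:114528000-114533999 (6.0 kb of 12.5 kb) and held 162 of 163 (99.4%). Since prey reads placed the blocks, these percentages describe the joins and test nothing. In Iadel the fullest γ1 bins were chr12:114574000-114574999 with 13 joins, chr12:114575000-114575999 with 11 and chr12:114576000-114576999 with 9. In NCdel these bins held 6, 0 and 5 of its 18 γ1 joins. The median γ1 position was 114574976 in Iadel and 114574484 in NCdel.

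Positions were scattered rather than repeated. The 67 γ1 joins had 65 distinct positions and the 163 γ2a joins had 158, and no position held 3 joins. Prey reads covered 28 to 312 bases in γ1 (median 139) and 30 to 1204 in γ2a (median 124). None of the 64 γ1 and 155 γ2a joins long enough to be compared shared a 40-base word with prey reads of another region of the window.

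Insertion in cells that keep Iα asks the same question where Sα remains the main acceptor. i3CBEc had no γ1 join in 3828 junctions, which allows a share of up to 0.0784%, against 18 joins in NCdel, present in each of its 6 libraries. The 95% exact conditional interval of the i3CBEc to NCdel ratio reached up to 0.687. The difference of -0.161 percentage points had an exact permutation p of 0.0238 and an adjusted p of 0.0595, and the groups did not overlap. i3CBEc and NCdel share no sequencing run, so genotype and run cannot be told apart in this comparison. Of the regions in this comparison 30% were called and 50% did not overlap. γ2a took 0.144%, 0.0796% and 0% in i3CBEc libraries 1 to 3, and 0.0946% at most in NCdel. The means were 0.0744% ± 0.0720 (n = 3) in i3CBEc and 0.0246% ± 0.0403 (n = 6) in NCdel (exact permutation p = 0.286), and the pooled ratio of 3.02 had an interval from 0.405 to 22.6. The ratio of means was 3.03, 1.62 without i3CBEc library 1, 4.54 without i3CBEc library 3 and 7.02 without NCdel library 6.

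Between the insertion lines, γ2a averaged 0.480% in Iadel-i3CBEc and 0.0744% in i3CBEc, and all 3 Iadel-i3CBEc libraries lay above all 3 of i3CBEc. The exact permutation p was 0.1, the smallest for 3 against 3, with a pooled ratio of 6.19 (1.89 to 32.04). The ratio of means was 6.44, 12.1 without i3CBEc library 1 and 4.30 without i3CBEc library 3. γ1 held 3 joins in Iadel-i3CBEc and 0 in i3CBEc, with p = 0.1 in the same permutation test. None of the regions was called (0%), and 70% did not overlap. These groups were sequenced in different runs, so genotype and run cannot be told apart here. The same holds for i3CBEc-3CBEdel against i3CBEc. There γ1 held 3 joins in i3CBEc-3CBEdel and 0 in i3CBEc, and γ2a 2 in i3CBEc-3CBEdel and 3 in i3CBEc. The exact permutation p was 0.4 for γ1 and 0.7 for γ2a, 0% of the regions were called and 20% did not overlap.

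The few joins of the sparse groups can be given one by one. In i3CBEc-3CBEdel the γ2a joins were both of library 1, at 114528546 (deletional) and 114530583 (inversional). Its γ1 joins lay close together, at 114576654 in library 2 (deletional) and at 114576600 and 114576611 in library 3 (both inversional), and the last has a prey alignment with 16.87% mismatched bases. The γ1 joins of Iadel-i3CBEc lay at 114583226, 114576599 and 114573311, were deletional and had an overlap of 1 base with the bait. In i3CBEc the γ2a joins lay at 114530566 and 114531011 in library 1 (deletional) and at 114528707 in library 2 (inversional). In NCdel they lay at 114535336 in library 3 (inversional) and at 114531240 and 114532038 in library 6 (deletional). The NCdel joins therefore lie outside the bin that holds most of the Iadel-i3CBEc joins.

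Joins to both units, most of them from Iadel, were nearly all deletional, meaning that prey aligned to the minus strand like the bait. The count was 62 of 67 in γ1 (92.5%) and 154 of 163 in γ2a (94.5%), against 49.5% on the minus strand among junctions to other chromosomes. In Iadel it was 41 of 43 in γ1 and 127 of 130 in γ2a. The 2 inversional γ1 joins of Iadel are the identical join at 114574107 that libraries 4 and 6 share. Per library the deletional percent was 97.7 ± 2.54 in γ2a, 95.0 ± 8.37 in γ1 and 95.1 ± 1.77 in γ3 plus γ2b (SD, n = 6). The 3 differences within libraries had adjusted exact sign-flip permutation p of 0.938 (γ2a and γ1), 1 (γ1 and γ3 plus γ2b) and 0.469 (γ2a and γ3 plus γ2b). In NCdel 17 of 18 γ1 joins and 2 of 3 γ2a joins were deletional, and 58 of 71 in γ3 plus γ2b. The other groups held few joins. Deletional were 3 of 3 γ1 joins in Iadel-i3CBEc and 2 of 3 γ2a joins in i3CBEc. In i3CBEc-3CBEdel it was 1 of 3 in γ1 and 1 of 2 in γ2a.

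In γ2a the deletional percent was lower in Iadel-i3CBEc. It was 90.9%, 87.5% and 83.3% in libraries 1 to 3 (22 of 25 joins), against 94.4% to 100% in the 6 Iadel libraries. The means were 87.2% ± 3.79 (n = 3) in Iadel-i3CBEc and 97.7% ± 2.54 (n = 6) in Iadel, with no overlap and an exact permutation p of 0.0119. The difference of -10.5 percentage points rests on 1 inversional join in each of the 3 libraries, against 3 among 130 in Iadel. Iadel libraries 1, 4 and 5 also held 1 inversional join each, among 25, 25 and 18 joins. Iadel-i3CBEc libraries 1 to 3 held 11, 8 and 6 joins, so 1 join weighs more in their percent. Why the percent was lower was not tested. The 3 inversional joins of Iadel-i3CBEc lay in the 1 kb next to the border, where 19 of 22 joins were deletional in Iadel-i3CBEc and 8 of 8 in Iadel. Beyond that 1 kb, 3 of 3 were deletional in Iadel-i3CBEc and 119 of 122 in Iadel. Other acceptors of the Iadel-i3CBEc libraries also had lower values, 82.6% between Sγ2a and Sε and 82.1% at ε. Within run 490 the γ2a means were 87.2% in Iadel-i3CBEc and 96.8% in Iadel.

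Joins were classed by how the bait and prey alignments meet: with an overlap (microhomology, as the deposited tables give it), blunt, or with inserted bases. Not every overlap base is matched on both sides: of the 131 overlaps in the 2 units, 7 hold a base not matched in both alignments, 1 in γ1 and 6 in γ2a. In Iadel, 24 of 43 γ1 joins had an overlap (55.8%), 12 were blunt (27.9%) and 7 had an insertion (16.3%). Of the 130 γ2a joins, 69 had an overlap (53.1%), 38 were blunt (29.2%) and 23 had an insertion (17.7%). For 1254 γ3 plus γ2b joins the percentages were 56.9%, 22.1% and 21.0%, and none of these makeups was tested against another. Overlaps of 4 or more bases made up 8 of 43 in γ1 (18.6%), 21 of 130 in γ2a (16.2%) and 10.2% in γ3 plus γ2b.

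Over joins without an insertion, the mean overlap per Iadel library was 1.65 ± 0.598 bases in γ2a, 1.58 ± 0.903 in γ1 and 1.67 ± 0.0583 in γ3 plus γ2b (SD, n = 6). Each of the 3 within-library differences had an adjusted exact sign-flip permutation p of 0.938, and each was higher in 3 libraries and lower in 3. The spread of γ1 comes with few joins, 3 to 11 per library. The longest overlap was 10 bases in γ1, in an NCdel join, and 9 in γ2a, and the longest with every base matched was 6 in γ1 and 8 in γ2a. The longest insertion was 5 bases in γ1 and 23 in γ2a. In γ2a the mean overlap was 2.18 ± 1.22 bases in Iadel-i3CBEc (n = 3) and 1.65 ± 0.598 in Iadel (n = 6), with an exact permutation p of 0.417 and overlap between groups. Without the overlaps that hold an unmatched base, a choice made after seeing the data, the means were 1.57 in Iadel-i3CBEc and 1.53 in Iadel. The reads printed above with the longest overlaps come from the tail of these distributions.

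**Figure D4:**
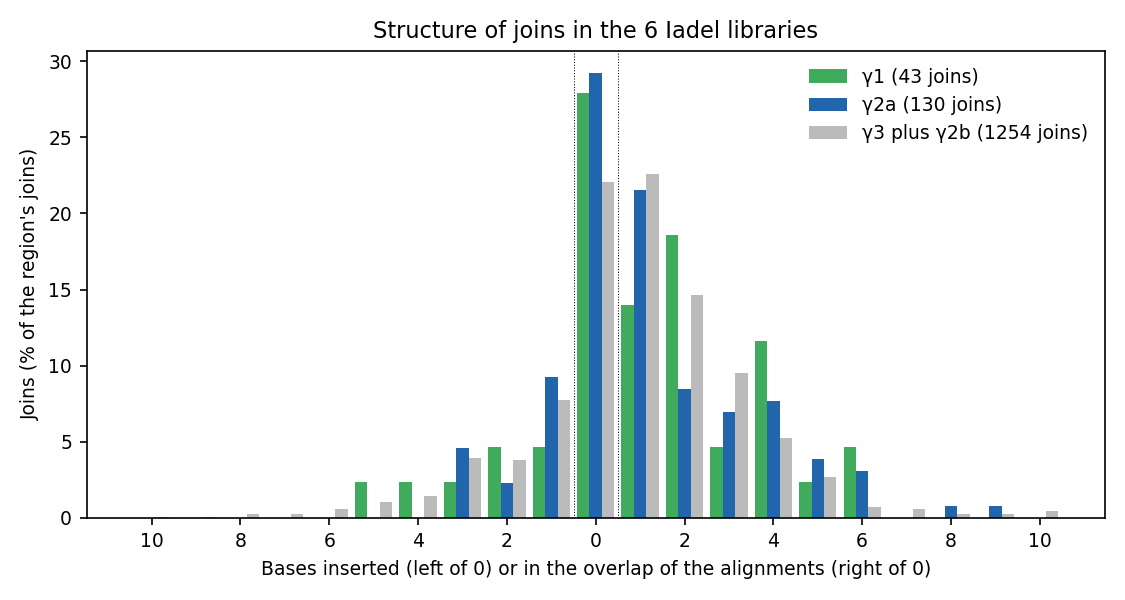
Percent of joins in Iadel by the number of bases inserted (left of 0), or covered by both bait and prey alignments (right of 0), for γ1, γ2a and γ3 plus γ2b. The 2 γ2a joins and 23 γ3 plus γ2b joins with over 10 inserted bases are outside the axis. The single tallest bar of γ1 and of γ2a is at 0, the blunt joins, with 27.9% and 29.2%, while overlaps of all lengths together hold 55.8% and 53.1%.

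The motif next to the break differed between the units, as a description chosen after the reads were seen. AGCT occurred in the first 20 prey bases of 68 of 163 γ2a joins (41.7%, 95% Wilson interval 34.4 to 49.4) and of 5 of 67 γ1 joins (7.46%, 3.23 to 16.3). The γ2a value was near the 45.0% of γ3 plus γ2b and the 48.2% of α, and the γ1 value was near the 11.4% of other chromosomes. In each of the 6 Iadel libraries γ2a was higher than γ1, with 28.6% to 57.1% in γ2a and 0% in 4 of the 6 for γ1. Farther into the prey the units came closer. In bases 41 to 60 the motif was found in 36.6% of γ2a joins and 29.5% of γ1 joins that reach that far. Over each whole block the prey reads held 2.16 AGCT per 100 bases in γ2a and 1.42 in γ1.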

How the data were processed

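CSR-HTGTS-seq libraries of genomic DNA from stimulated CH12F3 cells were analysed as the junction tables the authors deposited, 1 line per kept junction. Positions are in bases of mm9 and the tables carry other alignment coordinates and a microhomology value, with no normalisation, per the file headers. Bowtie2 and the build mm9 stand in the submitters' processing notes; filter settings and molecular identifiers are not given in the sources used here. Each library is a sample, grouped by the genotype in the labels, with 1180 to 3513 junctions.

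From chromosome 12 positions at or above 114526902 in the insertion libraries 99 bases were subtracted, which brings them to the scale of the other libraries. Junctions of Iadel library 4 that carry read names of libraries 5 or 6 were dropped (3075 of 4614). A window around the bait (20 kb on its upstream side, 250 kb on its downstream side) was divided into 10 regions, 7 of them acceptors. Switch blocks are 1-kb bins with at least 1000 prey bases and 1 AGCT per 100 bases, merged within 3 kb. No mm9 annotation was used here, so names follow the constant-gene order of RefSeq, where Ighg2c stands at the place the labels call Cγ2a. Printed sequence comes from the reads. Mismatch-free reads gave the same base wherever they covered the same position.

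Shares are percentages of all junctions of a library. Differences between group means were tested by exact permutation (two-sided), and units within a library by exact sign-flip. P-values were adjusted by Benjamini-Hochberg over the 10 regions of each comparison, or over the 3 within-library pairs. Intervals are 95% Wilson or exact conditional intervals. Where 0 joins were found, the limit is 3 joins. Both take in only counting error of joins pooled over libraries and leave out the spread between libraries. PCR copies cannot be told from separate molecules, so the counting error may itself be understated. Medians, orientation and overlaps needed at least 3 joins per library. Bins were named where they held the most joins in Iadel (3 per unit) or Iadel-i3CBEc (2), and single joins where a group had 3 or fewer in a unit. The units, named positions and tests were chosen with earlier results of these data known. The permutation test was tested on simulated data. Python 3.11.15, pandas 2.3.3, numpy 2.4.6, scipy 1.17.1 and matplotlib 3.10.9 were used.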

Additional observations from a re-analysis of the deposited data

How the results depend on the processing

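Of the 22 results, 106 recomputations under other settings kept the direction and side of the threshold, 12 newly passed it, 5 no longer passed and 7 reversed. The γ2a rise in Iadel over NCdel was called under all other denominators and counting rules, at 0.828 to 1.02 percentage points without any 1 library (adjusted exact permutation p at most 0.00722). Within run 490 alone it was 1.22 (adjusted 0.111 by exact permutation), and the balance of the units differed by 59.4 percentage points (exact p = 0.1), in designs that cannot go lower than 0.1. The same holds, in a comparison added after seeing the data, for the γ2a position in Iadel-i3CBEc against Iadel (-3069 bases in run 490, -2860 to -2655 without any 1 library) and for the deletional percent (-9.57 in run 490, -12.3 to -8.54 without any 1 library).

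γ1 was called under some denominators only. Iadel over NCdel differed by 0.764 percentage points of the IgH window (adjusted exact permutation p = 0.00618) and 2.54 of acceptor junctions (0.00253). Both totals hold the α joins, which averaged 43.2% of junctions in NCdel and 0.106% in Iadel. Their loss alone raises the percent of every other region in these totals. Iadel-i3CBEc against Iadel differed by -0.914 for γ1 and -2.27 for γ2a per window, and by -2.50 and -5.70 per acceptor junctions. For γ2a it was also called with deletional joins only (-0.537, adjusted exact permutation p = 0.0340) and with Iadel library 4 as deposited (-0.437, 0.0340). i3CBEc against NCdel was called for γ1 per window (-0.260), per acceptor junctions (-0.364), with deletional joins only (-0.151) and, added after seeing the data, with joins shared by libraries counted once (-0.171). Without any 1 library it was -0.183 to -0.144, called without NCdel library 2 (adjusted exact permutation p = 0.0446). i3CBEc and NCdel share no sequencing run, so none of these calls can be told apart from run.

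Overlap lengths have no stable sign. The mean overlap of γ2a over γ1 was -0.206 bases with at least 5 joins per library and -0.0385 with insertions counted as 0 (-0.332 to 0.392 without any 1 library), and -0.0527 without the overlaps that hold an unmatched base, a setting added after seeing the data. γ1 over γ3 plus γ2b was 0.315, 0.0816 and 0.0440 under these settings (-0.324 to 0.165), and γ2a over γ3 plus γ2b was 0.0431 with insertions counted as 0 (-0.167 to 0.185). For γ2a in Iadel-i3CBEc over Iadel it ran from -0.0983 to 1.12 without any 1 library. The deletional percent ran from -0.711 to 4.4 for γ2a over γ1 and from -1.51 to 3.19 for γ1 over γ3 plus γ2b. The γ2a share of i3CBEc-3CBEdel over i3CBEc ran from -0.0744 to 0.00213. γ2a minus γ1 within Iadel stayed at 0.540 to 0.678, where 5 libraries cannot give an exact p below 0.0625. The causes were not tested.

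Replicate numbers did not pair the libraries: for Iadel and NCdel the correlations of same-numbered libraries ran from -0.705 to 0.946, and 2 of 6 libraries correlated best with their own number. With the replicate block the γ2a difference was 0.957 (adjusted exact sign-flip permutation p = 0.0781 over same-numbered libraries). The block changed no other call among the region shares and balances, the results it was run for. Depth limits the sparse counts, such as 1 γ1 join in each Iadel-i3CBEc library and 3 γ2a joins in all of NCdel.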
